A study of Mus musculus with 14 samples.

Results

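The genes examined here make cholesterol, fatty acids and triglycerides, together with the regulators of the SREBP transcription factors. They were taken by gene symbol from a table of raw counts, and all 38 listed symbols were found among its 77981 genes. Of these, 18 encode enzymes of sterol synthesis, 16 belong to fatty acid and triglyceride synthesis and 4 are SREBP regulators. RNA came from 14 mouse liver tumours: 4 lacking both Cdk16 and Cdk18 (DKO), 5 lacking Cdk18 (CDK18KO) and 5 wild-type (WT). The libraries count the 3′ ends of messenger RNA, and the design text describes them as biological replicates. In every group tumours had been started by hydrodynamic injection of plasmids for c-Myc and β-catenin, which delivers DNA mainly to hepatocytes, and were taken when a tumour reached 15 mm, at distress, or at 8 weeks. Cdk16 was removed late, in formed tumours: tamoxifen at 75 mg/kg for 5 days was given to mice with floxed Cdk16 and Cre-ERT2 and to Cre-ERT2 controls, and tumours were collected 10 days afterwards. The same protocol text stands for every library, and whether the WT and CDK18KO animals carried Cre-ERT2 or received tamoxifen is not stated in the sources. Loss of Cdk16 therefore cannot be told apart from Cre and tamoxifen in comparisons with DKO tumours. The promoter driving Cre-ERT2 and the age of the animals are likewise not stated.

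Cells build cholesterol from acetyl-CoA through mevalonate, squalene and lanosterol, and fatty acids from acetyl-CoA through malonyl-CoA. SREBP2, the product of Srebf2, is known mainly for switching on the sterol pathway, and SREBP1c, a product of Srebf1, for switching on fatty acid synthesis in liver. Both precursors are carried by Scap to the Golgi, where they are cut and released, and Insig1 holds them back when sterols are plentiful. The hepatocyte is the main site of both pathways in the liver.

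Promoter sequences are shown for 4 members to place the results beside the regulatory sequence. Hmgcs1, Hsd17b7 and Sc5d are the sterol genes with the smallest p in a comparison with WT. Acly is a fatty acid gene with a small fitted difference between each knockout group and WT. Each is a RefSeq window of GRCm38.p6 that runs from 250 bases before to 50 bases after the transcription start, written 5′ to 3′ along the gene's strand. Capitals mark the CCAAT box on either strand (CCAAT or ATTGG) and a sterol regulatory element searched as TCACNCCAC on both strands. The windows are chr13:119690101-119690400 (plus strand) for Hmgcs1, chr1:169969156-169969455 (minus) for Hsd17b7, chr9:42264251-42264550 (minus) for Sc5d and chr11:100527951-100528250 (minus) for Acly.
Hmgcs1: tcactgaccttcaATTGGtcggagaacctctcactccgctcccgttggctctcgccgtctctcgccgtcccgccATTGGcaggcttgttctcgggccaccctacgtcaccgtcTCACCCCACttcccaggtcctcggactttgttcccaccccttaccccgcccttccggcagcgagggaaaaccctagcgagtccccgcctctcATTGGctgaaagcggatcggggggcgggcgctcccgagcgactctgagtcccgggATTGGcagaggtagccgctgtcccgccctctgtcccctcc
Hsd17b7: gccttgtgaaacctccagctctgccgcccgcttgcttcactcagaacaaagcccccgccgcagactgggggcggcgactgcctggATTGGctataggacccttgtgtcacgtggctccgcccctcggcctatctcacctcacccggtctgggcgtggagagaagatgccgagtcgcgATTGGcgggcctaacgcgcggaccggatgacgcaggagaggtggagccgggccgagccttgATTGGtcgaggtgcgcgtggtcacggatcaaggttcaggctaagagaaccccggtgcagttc
Sc5d: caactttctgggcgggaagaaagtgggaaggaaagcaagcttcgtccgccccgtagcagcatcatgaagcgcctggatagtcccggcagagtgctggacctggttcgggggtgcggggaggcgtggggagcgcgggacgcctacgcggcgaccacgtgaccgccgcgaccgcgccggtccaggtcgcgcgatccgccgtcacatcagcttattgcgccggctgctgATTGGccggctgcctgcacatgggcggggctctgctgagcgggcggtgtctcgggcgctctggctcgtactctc
Acly: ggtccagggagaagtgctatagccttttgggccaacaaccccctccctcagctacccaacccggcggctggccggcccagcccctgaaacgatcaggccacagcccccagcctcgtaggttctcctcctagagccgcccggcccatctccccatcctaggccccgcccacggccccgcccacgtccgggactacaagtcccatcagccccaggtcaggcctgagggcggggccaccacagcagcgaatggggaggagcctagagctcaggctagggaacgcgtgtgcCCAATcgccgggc

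The promoter table held 40 windows for 31 of the 38 members, and a gene was counted once if any of its windows matched. A CCAAT box, the site of the factor NF-Y, was present in 14 of 15 sterol genes (93.3%) and 9 of 12 fatty acid and triglyceride genes (75.0%), against 43.1% of the 9940 tested genes with a window. The GC box GGGCGG, bound by Sp1, was found in 14 of 15 sterol genes (93.3%) and 6 of 12 fatty acid genes (50%), against 68.1% of tested genes. The sterol element matched in 2 of 31 members (6.45%), Hmgcs1 and Mlxipl, against 1.42% of tested genes, and in Hmgcs1 the match began 137 bases before the start. The E-box CACGTG was found in 7 of 31 members (22.6%), against 11.8% of tested genes. Acly had 1 CCAAT box and 4 GC boxes, Hsd17b7 had 3 of each and Sc5d 1 and 4. A match describes letters and is not evidence of binding. Only TCACNCCAC was searched, within these windows, so a gene without a match cannot be said to lack a sterol element.

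Total counts ran from 1442417 (WT 5) to 6068209 (WT 2). All 38 members were among the 13997 genes that passed the filter on low counts. Levels are CPM, counts scaled to a common library size after TMM adjustment; ± gives the SD among libraries of a group, and SE is named where used. Cdk16 averaged 30.8 ± 15.4 CPM in DKO, 40.6 ± 14.3 in CDK18KO and 49.1 ± 7.32 in WT tumours, and Cdk18 averaged 1.90 ± 1.51, 1.98 ± 1.06 and 4.76 ± 3.58 CPM in those 3 groups (n = 4, 5 and 5). The ranges of both genes overlapped between groups, and since it is not given whether the counted 3′ ends lie in the deleted parts, these values check no label. Summed levels of 20 hepatocyte markers spanned 3445 to 39161 CPM in DKO, 2788 to 26545 in CDK18KO and 336 to 7618 in WT tumours, so the markers of the labelled tissue were lowest in WT 1 and WT 3, at 336 and 624 CPM. Y-linked genes summed to over 100 CPM in CDK18KO 1, WT 3 and WT 5 and to at most 33.0 CPM in every other library. Their sums ran from 0.647 to 2.78 CPM in DKO and from 3.85 to 788 CPM in WT tumours, so the DKO and WT ranges did not meet. In bulk tumour RNA, fewer cells of a type and less RNA per cell cannot be told apart.

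**Figure D1:**
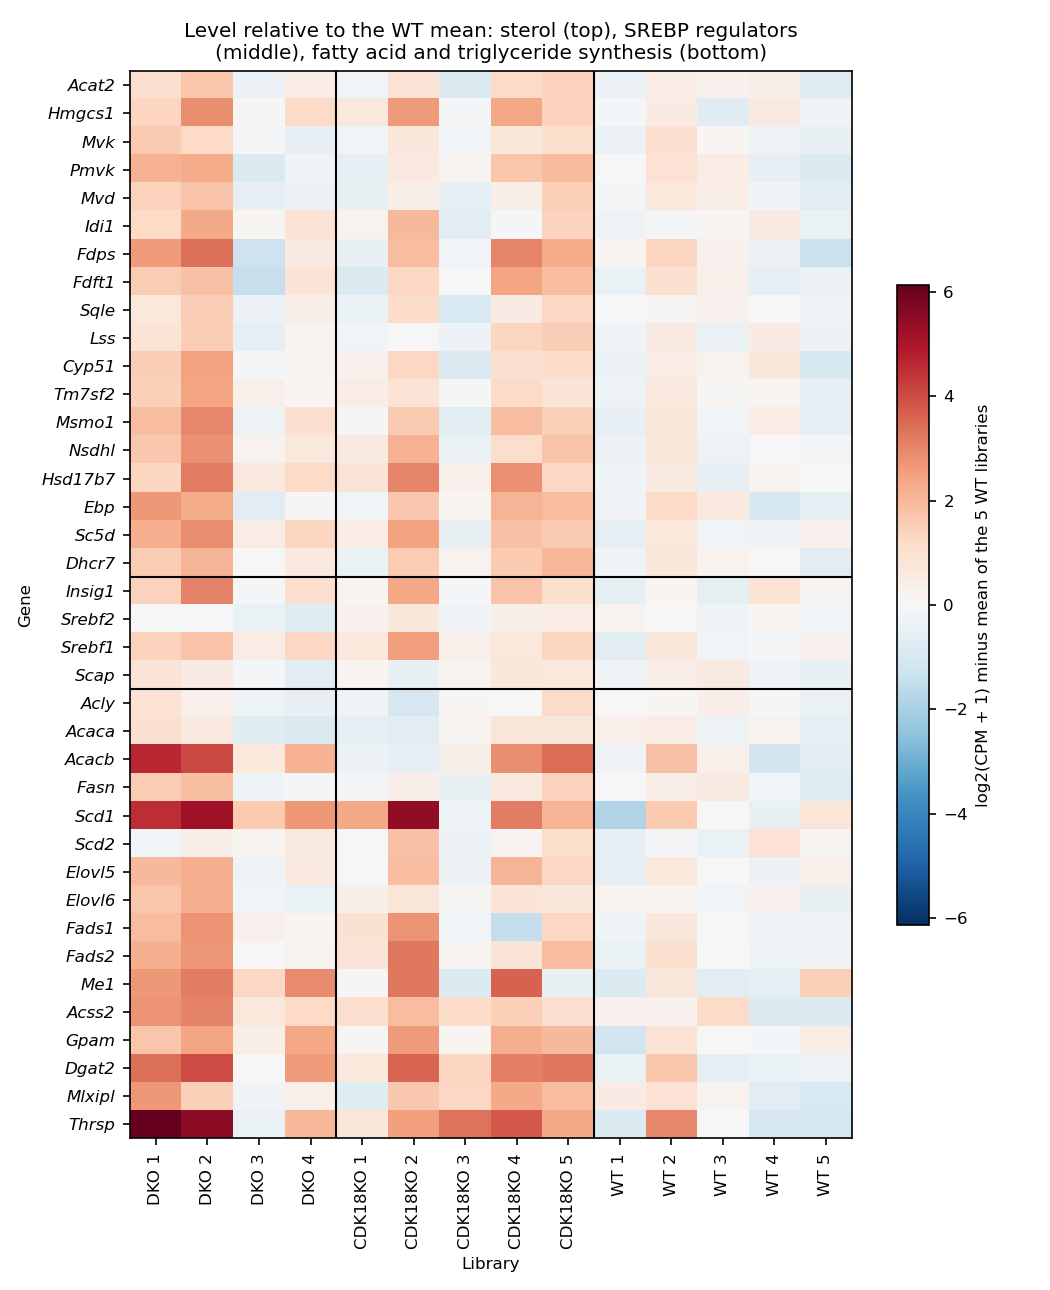
Levels of the 38 genes (rows) in the 14 libraries (columns: DKO, CDK18KO, WT), as log2(CPM + 1) minus the mean of the 5 WT libraries; red is above and blue below that mean. DKO 2 was the highest library for 21 genes and 15 of the 18 sterol genes, while DKO 3 and CDK18KO 3 resembled the WT columns for most sterol genes.

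The summed levels had a wider spread in the knockout groups than in WT, with an SD of 2402 CPM in DKO, 1553 in CDK18KO and 336 in WT tumours for the sterol genes. Summed sterol gene levels were 3432, 6441, 993 and 1827 CPM in the DKO tumours, 1251, 4177, 843, 4017 and 3131 CPM in the CDK18KO tumours, and 928, 1676, 1073, 1276 and 826 CPM in the WT tumours. Summed fatty acid and triglyceride gene levels were 5041, 6670, 1297 and 2238 CPM in DKO, 1522, 6797, 1157, 3135 and 3150 CPM in CDK18KO, and 949, 1718, 1182, 1288 and 1124 CPM in WT tumours. DKO 1, 2 and 4 and CDK18KO 2, 4 and 5 stood above every WT library in both sums, whereas DKO 3 and CDK18KO 1 and 3 lay within the WT range for both. The hepatocyte marker sums divided the knockout libraries in the same way. They were 11733 to 39161 CPM in the former libraries and 2788 to 4654 CPM in the latter, against at most 7618 CPM in WT tumours. DKO 2 held the highest level of 21 of the 38 members, DKO 1 and CDK18KO 2 of 7 each, and no WT library was highest for any member. WT 5 was lowest for 10 members and WT 1 for 8.

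DKO tumours were set against WT tumours, a comparison in which loss of Cdk16 cannot be told apart from Cre and tamoxifen. The fitted level was higher in DKO for 37 of 38 members, Srebf2 being the exception, against 47.9% of all genes, with a median log2 fold change of 1.42 over the members against -0.04 over all genes tested. Sterol genes had a median of 1.36 (0.65 to 1.95) and fatty acid and triglyceride genes 1.63 (0.13 to 3.93). None of the 38 members passed an adjusted p of 0.05 in edgeR's quasi-likelihood test, where 0.00714% of all genes did, a single gene. That gene, C1rb of the complement system, had 271, 430, 39.8 and 336 CPM in DKO and 2.22, 4.26, 2.04, 0 and 0.771 CPM in WT tumours (edgeR adjusted p = 0.0259). At an unadjusted p under 0.05, 24 members (11 sterol genes, Insig1, Srebf1 and 11 fatty acid genes) were higher in DKO, against 13.7% of all genes, and no member was lower, against 5.22%. DESeq2 called 8 members higher, Hsd17b7, Sc5d, Acacb, Acss2, Dgat2, Gpam, Scd1 and Thrsp, against 6.28% of all genes. Without DKO 2 the sterol median was 0.84 and 8 members were past the unadjusted threshold, against 8.00% of all genes; without CDK18KO 1, WT 3 and WT 5, which had Y-linked sums above 100 CPM, the number was 9, against 9.18%. With the mean log2 CPM of the hepatocyte markers as a covariate, the medians were -0.42 for sterol and 0.03 for fatty acid genes. With the Y-linked covariate the sterol median was 0.70. Both covariates themselves differed between DKO and WT tumours, so these fits cannot separate them from genotype.

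CDK18KO tumours were compared with the same 5 WT tumours, so both comparisons share their WT values and are not independent. All 38 members had a higher fitted level in CDK18KO, against 49.4% of all genes, with a median log2 fold change of 1.21 against -0.01 over all genes. The sterol median was 1.01 (0.36 to 1.99) and the fatty acid and triglyceride median 1.35 (0.14 to 3.26). Again 0 of 38 members passed edgeR's adjusted threshold, as did 0.00714% of all genes, C1rb alone (66.8, 398, 68.3, 190 and 196 CPM in CDK18KO; adjusted p = 0.0460). At an unadjusted p under 0.05, 14 members were higher (5 sterol genes, Srebf1 and 8 fatty acid genes), against 11.6% of all genes, and 0 were lower, against 5.31%. DESeq2 called Dgat2, Hsd17b7 and Scd1 higher, where 4.32% of all genes were called. Without CDK18KO 2 the count past the unadjusted threshold was 5, against 6.83% of all genes, and leaving out CDK18KO 1, WT 3 and WT 5 made it 8, against 7.91%. With the hepatocyte marker covariate the sterol median was -0.37 and the fatty acid median 0.00256, with 14 of 38 members higher. That marker mean ran from 6.33 to 9.67 in CDK18KO and from 3.34 to 7.90 in WT tumours, so the fit cannot separate it from genotype. With the Y-linked covariate the sterol median was 0.58.

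**Figure D2:**
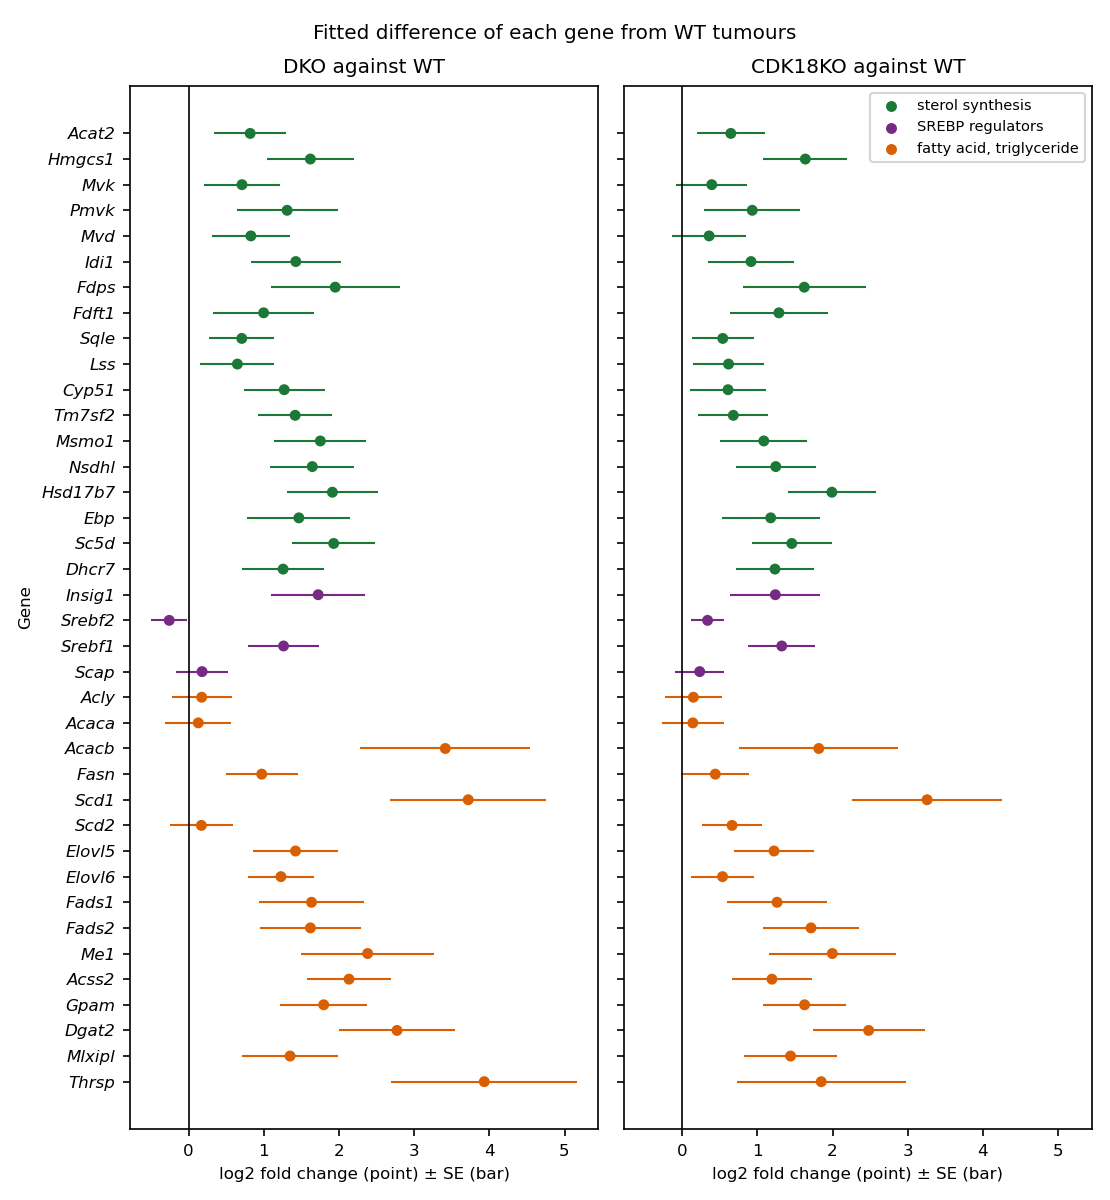
Fitted log2 fold change of each member (point) with its SE (bar) for DKO against WT (left) and CDK18KO against WT (right), coloured by arm. Scd1, Acacb, Dgat2 and Thrsp lie farthest right among DKO differences, at 3.72, 3.41, 2.77 and 3.93, and Scap, Acly, Acaca and Scd2 lie near 0, at 0.18, 0.17, 0.13 and 0.17.

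DKO tumours were also compared directly with CDK18KO tumours. The members had a median log2 fold change of 0.30, 0.32 for sterol and 0.33 for fatty acid genes, against -0.02 over all genes, and 28 of 38 were higher, against 48.2% of all genes. No member had separate DKO and CDK18KO levels, against 0.872% of genes higher and 0.722% lower. No member passed edgeR's adjusted threshold, nor did any other gene (0%), and DESeq2 called 0 members, against 0.574% of all genes higher and 0.0287% lower. At an unadjusted p under 0.05, 0 members were higher, against 3.94% of all genes, and 1 was lower, Srebf2, against 1.86%. Without DKO 2 the medians were -0.14 for sterol and -0.04 for fatty acid genes, and 13 of 38 members were higher.

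The sterol enzymes are described in pathway order. The mevalonate steps (Acat2, Hmgcs1, Mvk, Pmvk, Mvd, Idi1) ran from 0.71 to 1.62 for DKO against WT, Mvk and Hmgcs1 being the ends, and the steps after lanosterol from 1.26 (Dhcr7) to 1.93 (Sc5d). Fdps, which makes farnesyl diphosphate, had the largest sterol value at 1.95 (SE 0.86), and Lss, which closes lanosterol, the smallest at 0.65 (SE 0.49). Without DKO 2 these were 1.17 for Fdps and 0.23 for Lss, against 1.45 for Sc5d. Mvk was 0.28 without DKO 1 and 1.12 without WT 2, and Dhcr7 was 0.83 without DKO 2. Acat2 counts are uncertain, since its near-identical neighbour Acat3 also had counts, averaging 43.4 ± 31.8 CPM in DKO, 39.8 ± 41.5 in CDK18KO and 2.94 ± 4.45 in WT tumours.

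Hsd17b7, the 3-ketosteroid reductase that acts in C4 demethylation of the sterol ring, had 98.9, 354, 59.6 and 89.5 CPM in DKO, 68.3, 310, 47.5, 275 and 94.1 CPM in CDK18KO, and 31.9, 56.3, 27.4, 45.1 and 38.6 CPM in WT tumours. Every DKO library was above every WT library, and CDK18KO overlapped WT only through CDK18KO 3. Hsd17b7 and Scd1 were the 2 of 38 members whose DKO and WT levels did not overlap with DKO higher, against 3.04% of all genes, and none was wholly lower, against 2.46%. No member had separate CDK18KO and WT levels, against 1.1% of all genes higher and 1.6% lower. The log2 fold change of Hsd17b7 was 1.91 (SE 0.60, edgeR adjusted p = 0.146) in DKO and 1.99 (SE 0.58, adjusted p = 0.162) in CDK18KO against WT. Without DKO 2 the DKO value was 1.05.

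Sc5d, the lathosterol desaturase, had 499, 792, 146 and 266 CPM in DKO, 145, 605, 77.0, 375 and 333 CPM in CDK18KO, and 73.8, 167, 93.7, 93.6 and 130 CPM in WT tumours. DKO 3 lay below WT 2, and CDK18KO 1 and 3 were inside the WT range, while the other DKO libraries stood above every WT library. The difference was 1.93 (SE 0.56, edgeR adjusted p = 0.146) for DKO and 1.46 (SE 0.53, adjusted p = 0.197) for CDK18KO against WT. Hmgcs1, which makes HMG-CoA, had 651, 1908, 278 and 593 CPM in DKO, 414, 1601, 245, 1384 and 698 CPM in CDK18KO, and 245, 372, 159, 392 and 226 CPM in WT tumours. DKO 3 and CDK18KO 3 alone lay inside the WT range. The difference of Hmgcs1 was 1.62 (SE 0.58, edgeR adjusted p = 0.161) for DKO and 1.64 (SE 0.56, adjusted p = 0.179) for CDK18KO against WT, and without DKO 2 the DKO value was 0.87.

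Nsdhl, the sterol decarboxylase of the same C4 demethylation complex as Hsd17b7, had 75.4, 165, 27.2 and 36.7 CPM in DKO, 34.5, 106, 17.4, 50.2 and 80.2 CPM in CDK18KO, and 17.8, 39.7, 18.3, 23.3 and 21.6 CPM in WT tumours. DKO 3 and DKO 4 lay inside the WT range, as did CDK18KO 1, and CDK18KO 3 was lower than all WT libraries. The 3 sterol genes with the smallest p between DKO and CDK18KO were Tm7sf2, a sterol reductase, Cyp51, the lanosterol demethylase, and Msmo1, the methylsterol oxidase. Tm7sf2 had 21.4, 42.3, 9.06 and 7.78 CPM in DKO and 10.3, 13.3, 6.52, 17.2 and 13.0 CPM in CDK18KO tumours. Cyp51 had 372, 714, 120 and 147 CPM in DKO and 157, 310, 68.9, 254 and 279 CPM in CDK18KO tumours. Msmo1 had 211, 439, 44.7 and 114 CPM in DKO and 58.7, 174, 35.7, 212 and 157 CPM in CDK18KO tumours. For these 3 genes the groups overlapped, with DKO 2 far above all other libraries, and the differences of 0.74 (Tm7sf2), 0.66 (Cyp51) and 0.67 (Msmo1) had edgeR adjusted p of 0.981, 0.993 and 0.993.

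The SREBP regulators included 2 genes with a wide range and 2 with a narrow one. Insig1 had 59.7, 184, 20.4 and 45.0 CPM in DKO, 23.9, 114, 20.2, 74.0 and 44.0 CPM in CDK18KO, and 13.7, 23.8, 14.0, 41.3 and 23.9 CPM in WT tumours, with DKO 3 and CDK18KO 1 and 3 inside the WT range. Srebf1 had 56.6, 70.4, 27.8 and 50.6 CPM in DKO, 32.6, 126, 25.2, 32.4 and 52.4 CPM in CDK18KO, and 12.6, 33.0, 18, 18.3 and 24.7 CPM in WT tumours. WT 2 alone stood in the knockout range of Srebf1. Srebf2 had 114, 114, 84.5 and 67.8 CPM in DKO, 136, 185, 97.5, 148 and 154 CPM in CDK18KO, and 131, 115, 96.9, 124 and 102 CPM in WT tumours. Scap had 95.4, 77.8, 52.8 and 35.0 CPM in DKO, 60.3, 39.9, 63.4, 89.2 and 86.2 CPM in CDK18KO, and 47.1, 72.7, 81.5, 46.3 and 40.1 CPM in WT tumours. Both genes spanned less than 3-fold over the 14 libraries, Srebf2 2.73-fold and Scap 2.73-fold, the narrowest of the members. Against WT, the log2 differences were 1.72 for Insig1, 1.26 for Srebf1, -0.26 for Srebf2 and 0.18 for Scap in DKO, and 1.24, 1.32, 0.34 and 0.23 for the same genes in CDK18KO, with edgeR adjusted p between 0.166 and 0.792. Without DKO 2 the DKO value of Insig1 was 0.85, and without CDK18KO 2 the CDK18KO values were 0.79 for Insig1 and 0.72 for Srebf1. Srebf2 was 0.60 lower on the log2 scale in DKO than in CDK18KO tumours (SE 0.24, edgeR unadjusted p = 0.0248, adjusted p = 0.738).

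The ratio of Srebf1 to Srebf2, which cancels the scaling of each library, was 0.495, 0.616, 0.330 and 0.746 in DKO, 0.240, 0.681, 0.258, 0.219 and 0.339 in CDK18KO, and 0.0960, 0.287, 0.186, 0.147 and 0.242 in WT tumours. Every DKO ratio was above every WT ratio, and CDK18KO overlapped both groups.

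In the fatty acid arm, the desaturase pair had 1 member with a wide range and 1 with a narrower one. Scd1, the main stearoyl-CoA desaturase of liver, had 1421, 2250, 183 and 380 CPM in DKO, 312, 2684, 49.1, 544 and 255 CPM in CDK18KO, and 15.9, 182, 59.4, 43.8 and 99.5 CPM in WT tumours, and DKO 3 cleared WT 2 only narrowly. Its log2 fold change was 3.72 (SE 1.04, edgeR adjusted p = 0.146) for DKO and 3.26 (SE 1.0, adjusted p = 0.164) for CDK18KO against WT. Without CDK18KO 2 the CDK18KO value was 1.82. Scd2, the desaturase known from brain and developing liver, had 248, 364, 316 and 407 CPM in DKO, 280, 964, 217, 309 and 581 CPM in CDK18KO, and 199, 258, 212, 512 and 302 CPM in WT tumours, and the groups overlapped throughout. Both genes lie on chromosome 19 (GRCm38.p6), Scd1 at chr19:44394450-44407709 and Scd2 at chr19:44293676-44306864. Their ratio averaged 3.36 ± 3.01 in DKO, 1.26 ± 1.04 in CDK18KO and 0.296 ± 0.256 in WT tumours (n = 4, 5 and 5), with DKO 3 at 0.577 below WT 2 at 0.707.

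In the carboxylase pair the spread also lay in one member. Acacb, the mitochondria-associated acetyl-CoA carboxylase, had 71.4, 47.3, 3.56 and 11.7 CPM in DKO, 1.24, 1.06, 2.79, 19.8 and 30.6 CPM in CDK18KO, and 1.48, 9.07, 2.62, 0.315 and 0.771 CPM in WT tumours. The WT values rest on 4, 66, 9, 1 and 1 counts, and DKO 3 and CDK18KO 1, 2 and 3 lay within the WT range. Acaca, the cytosolic enzyme that feeds fatty acid synthesis, had 107, 82.8, 32.0 and 29.5 CPM in DKO, 37.6, 34.0, 62.1, 93.5 and 89.9 CPM in CDK18KO, and 69.0, 75.0, 43.7, 63.7 and 35.5 CPM in WT tumours, with groups intermixed. Acacb differed by 3.41 (SE 1.13, edgeR adjusted p = 0.149) in DKO and by 1.82 (SE 1.06, adjusted p = 0.399) in CDK18KO against WT, the CDK18KO value being 1.01 without CDK18KO 5 and 2.99 without WT 2. Acaca differed by 0.13 and 0.14, with adjusted p of 0.893 and 0.887.

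**Figure D3:**
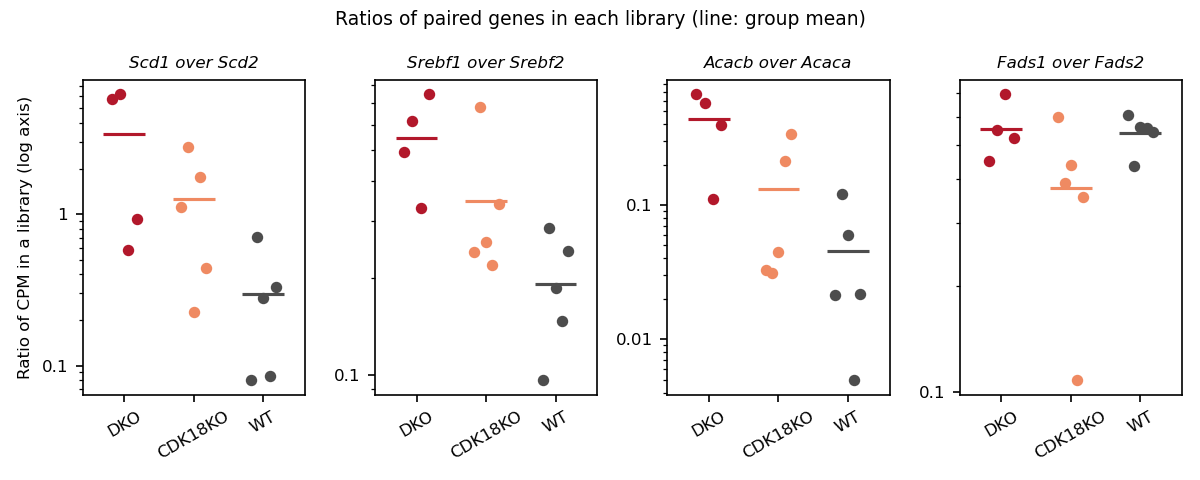
Ratios of 4 gene pairs in each library (points, log axis) with group means (lines), for DKO, CDK18KO and WT. Srebf1 over Srebf2 separates the DKO points (0.330 to 0.746) from the WT points (0.0960 to 0.287); Scd1 over Scd2 and Acacb over Acaca overlap, and Fads1 over Fads2 has 1 low point, CDK18KO 4 at 0.108.

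Fads1 and Fads2, neighbouring genes on chromosome 19 for the desaturases of polyunsaturated fatty acids, had a ratio of 0.553 ± 0.103 in DKO, 0.378 ± 0.177 in CDK18KO and 0.541 ± 0.0633 in WT tumours. Fads1 had 193, 345, 64.4 and 56.1 CPM in DKO, 99.7, 348, 45.7, 17.8 and 127 CPM in CDK18KO, and 43.0, 83.1, 52.4, 41.9 and 44.0 CPM in WT tumours. Fads2 had 431, 628, 92.9 and 108 CPM in DKO, 167, 891, 104, 165 and 355 CPM in CDK18KO, and 70.8, 191, 93.4, 75.3 and 81.0 CPM in WT tumours. CDK18KO 4 had the lowest Fads1 of all 14 libraries while its Fads2 was within the range of the others.

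Genes of esterification and of acetyl-CoA supply follow. Dgat2, which completes triglycerides, had 212, 321, 19.7 and 124 CPM in DKO, 31.4, 243, 50.6, 173 and 193 CPM in CDK18KO, and 14.5, 64.8, 12.5, 14.5 and 15.4 CPM in WT tumours; WT 2 alone reached the knockout range. Its difference was 2.77 (SE 0.78, edgeR adjusted p = 0.146) for DKO and 2.48 (SE 0.75, adjusted p = 0.162) for CDK18KO against WT. Gpam, the glycerol-phosphate acyltransferase of the first step, had 251, 423, 98.1 and 407 CPM in DKO, 80.8, 482, 82.6, 359 and 307 CPM in CDK18KO, and 33.7, 137, 75.7, 71.8 and 106 CPM in WT tumours. DKO 3 and CDK18KO 1 and 3 lay inside the WT range of Gpam, and the other knockout libraries above it. Acss2, which makes acetyl-CoA from acetate, had 48.3, 59.7, 10.7 and 16.1 CPM in DKO, 14.3, 26.1, 14.9, 19.2 and 13.4 CPM in CDK18KO, and 7.79, 7.83, 15.7, 3.15 and 3.09 CPM in WT tumours. WT 3 was the library that overlapped both knockout groups. Acss2 differed by 2.13 (SE 0.56, edgeR adjusted p = 0.146) in DKO and 1.19 (SE 0.53, adjusted p = 0.270) in CDK18KO against WT, and by 0.94 (SE 0.54, adjusted p = 0.948) between DKO and CDK18KO. Acly, which makes acetyl-CoA from citrate, differed by 0.17 in DKO and 0.15 in CDK18KO against WT (SE 0.40 and 0.38). Single libraries varied more, from 46.3 CPM in CDK18KO 2 to 217 CPM in CDK18KO 5.

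Thrsp, a hepatic lipogenesis regulator also called Spot14, had 365, 233, 2.91 and 20.6 CPM in DKO, 7.77, 28.7, 51.6, 70.0 and 25.0 CPM in CDK18KO, and 1.85, 38.9, 4.08, 1.58 and 1.54 CPM in WT tumours. WT 2 exceeded DKO 3, DKO 4 and 3 of the 5 CDK18KO libraries. The difference was 3.93 (SE 1.24, edgeR adjusted p = 0.146) for DKO and 1.85 (SE 1.12, adjusted p = 0.418) for CDK18KO against WT, and without WT 2 these were 6.03 and 3.94. Elovl6, the elongase from palmitate to stearate, had 287, 411, 79.6 and 66.1 CPM in DKO, 114, 149, 94.1, 151 and 144 CPM in CDK18KO, and 103, 97.1, 77.4, 107 and 64.0 CPM in WT tumours. DKO 1 and DKO 2 were high and the other 2 DKO libraries within the WT range. Fasn, the fatty acid synthase, differed by 0.97 (SE 0.48, edgeR adjusted p = 0.283; 0.58 without DKO 2) in DKO and 0.44 (SE 0.45, adjusted p = 0.644) in CDK18KO against WT.

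The 2 arms were compared library by library. The mean log2 CPM of sterol genes minus that of fatty acid genes was -0.97, -0.41, -0.53 and -0.61 in DKO, -0.42, -0.48, -0.75, -0.24 and -0.12 in CDK18KO, and 0.03, -0.31, -0.06, 0.28 and -0.35 in WT tumours. Every DKO value was below every WT value, but only narrowly, while CDK18KO overlapped WT. The highest DKO value was -0.41 and the lowest WT value -0.35, where the SD within groups was 0.248. The lowest WT values, of WT 2 and WT 5, came with the highest WT hepatocyte marker sums, 7618 and 3627 CPM. The fatty acid mean also holds Acacb and Thrsp, which rest on few counts in most WT libraries. The part of either in this separation was not tested, nor how often other gene sets separate in this way. The median difference of the sterol arm minus that of the fatty acid arm was -0.26 for DKO against WT, -0.34 for CDK18KO against WT and -0.01 for DKO against CDK18KO. It stayed negative for both knockouts against WT when any 1 library was left out, and was -0.08 for CDK18KO without CDK18KO 2. The spread among members was wider in the fatty acid arm, with an SD over members of 1.20 against 0.44 in the sterol arm for DKO against WT, and 0.85 against 0.47 for CDK18KO against WT.

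Some of these genes followed hepatocyte marker expression inside the groups. For each gene the slope on the mean log2 CPM of 20 hepatocyte markers (among them Alb, Apob and Hnf4a) was fitted with a term for each group, so that differences between groups did not enter; this fit was chosen after seeing the data. Of the 38 members 13 rose with the markers at an edgeR adjusted p under 0.05 (34.2%), against 7.52% of all genes, and 0 fell, against 1.15%. These were 5 sterol genes (Hmgcs1, Msmo1, Nsdhl, Hsd17b7, Sc5d), Insig1, Srebf1 and 6 fatty acid or triglyceride genes (Scd1, Elovl5, Fads2, Me1, Gpam, Dgat2). The steepest of the 13 was Scd1, which changed by 0.90 log2 units per log2 unit of the markers (SE 0.15, edgeR adjusted p = 0.00147), followed by Me1, the malic enzyme, at 0.72 (SE 0.18, adjusted p = 0.0189) and Dgat2 at 0.68 (SE 0.12, adjusted p = 0.00146). Sc5d had a slope of 0.50 (SE 0.09, adjusted p = 0.00177) and Elovl5, an elongase of polyunsaturated fatty acids, also 0.50 (SE 0.10, adjusted p = 0.00338). Median slopes were 0.39 for sterol genes and 0.45 for fatty acid genes, against -0.02 over all genes. Slopes of Acly, Scap, Srebf2, Acaca, Acss2 and Scd2 were between 0.04 and 0.17 and did not pass. Of the 38 members, 7 passed without DKO 3 (708 of 14522 genes tested, against 1053 of 13997 with every library). Without CDK18KO 3 the number was 8 (757 of 13739 genes), and without WT 5 it was 20 (1211 of 13840). Leaving out WT 1 and WT 3, the 2 libraries with the lowest marker mean, gave 23 members (1694 genes).

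**Figure D4:**
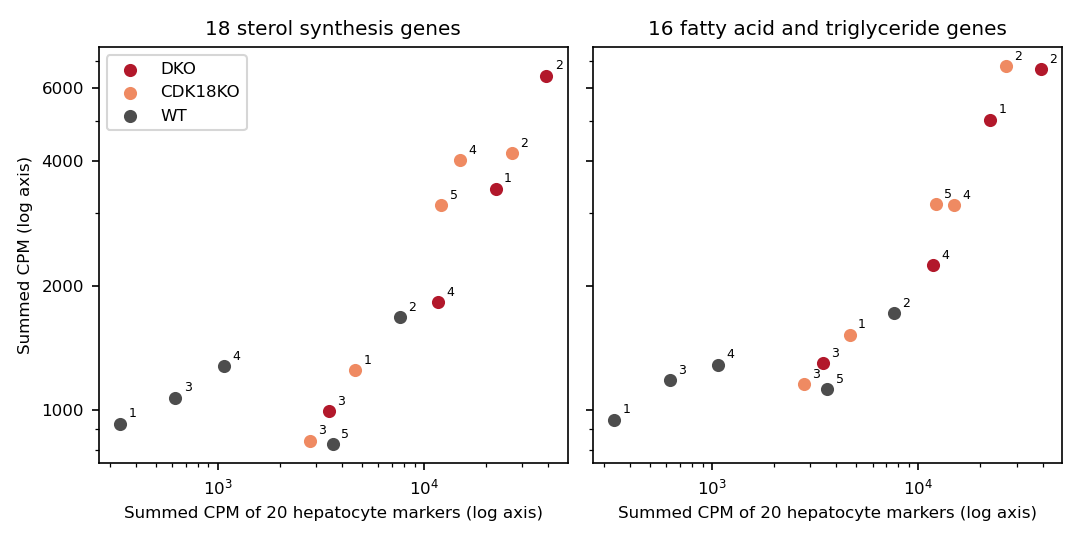
Summed CPM of the 18 sterol genes (left) and the 16 fatty acid and triglyceride genes (right) against the summed CPM of 20 hepatocyte markers, 1 point a library with its replicate number, log axes. The 3 libraries with the highest marker sums, DKO 2, CDK18KO 2 and DKO 1, had sterol sums of 6441, 4177 and 3432 CPM. At the low end the order did not hold. WT 1, with the lowest marker sum (336 CPM), had a sterol sum of 928 CPM. WT 5 and CDK18KO 3, with marker sums of 3627 and 2788 CPM, had lower sterol sums, 826 and 843 CPM.

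**Figure D5:**
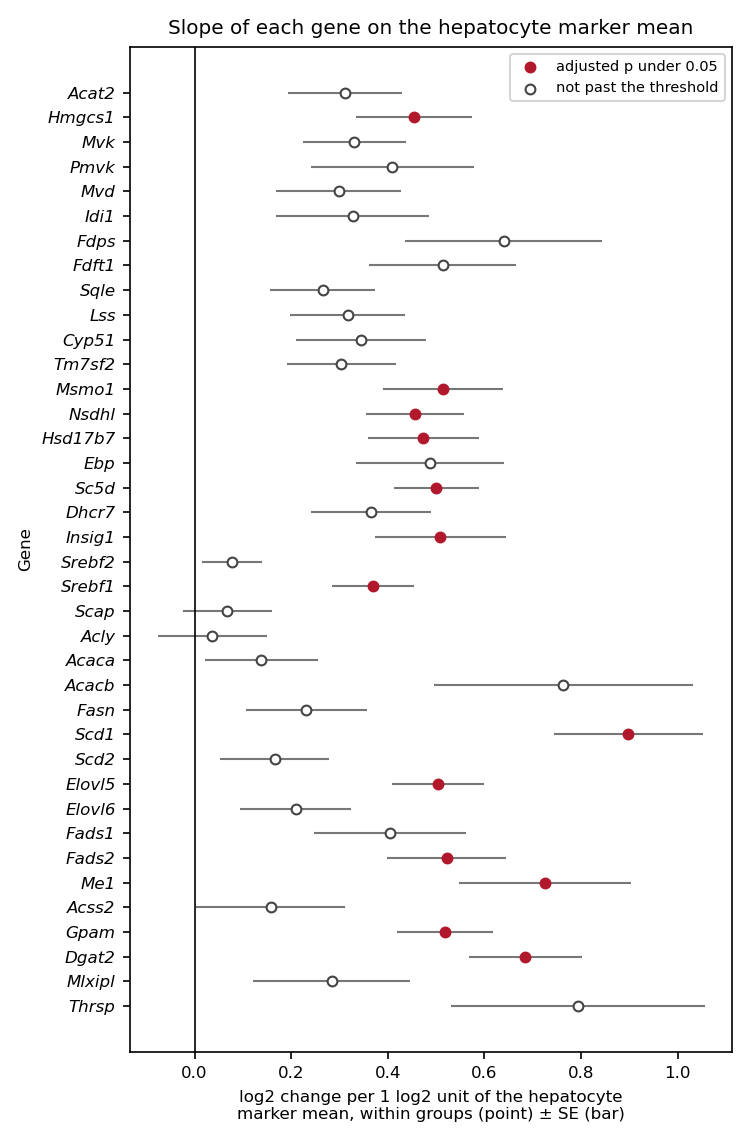
Slope of each member on the hepatocyte marker mean within groups (point) with its SE (bar); filled points passed an edgeR adjusted p of 0.05. The 13 filled genes have slopes between 0.37 (Srebf1) and 0.90 (Scd1), and Acly, at 0.04, has the lowest slope.

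All 20 hepatocyte markers had higher fitted levels in DKO and in CDK18KO than in WT tumours, against 47.9% and 49.4% of all genes, with median log2 fold changes of 2.93 and 2.37, and none passed edgeR's adjusted threshold (smallest adjusted p = 0.146 for DKO and 0.162 for CDK18KO). Of the markers of other cells, neutrophil markers summed to 366 to 542 CPM in DKO, 5.28 to 89.0 in CDK18KO and 40.8 to 272 in WT tumours, so that the DKO and WT ranges did not meet. Erythroid markers summed to 1729 to 10027 CPM in DKO, 536 to 1918 in CDK18KO and 561 to 2665 in WT tumours, with DKO 3 and DKO 4 above all other libraries. Macrophage markers summed to 72.8 to 632 CPM in DKO, 61.8 to 136 in CDK18KO and 55.5 to 141 in WT tumours, with DKO 1 and DKO 2 above all others. The DKO and WT ranges overlapped for endothelial markers (47.9 to 153 CPM in DKO, 20.8 to 152 in CDK18KO and 40.2 to 68.6 in WT tumours), cholangiocyte markers (148 to 559 CPM in DKO, 34.0 to 302 in CDK18KO and 165 to 414 in WT tumours) and stellate and fibroblast markers (464 to 1204 CPM in DKO, 47.2 to 904 in CDK18KO and 460 to 1357 in WT tumours). In CDK18KO against WT tumours, all 7 cholangiocyte markers tested had lower fitted levels, with a median log2 fold change of -2.57. All 10 stellate and fibroblast markers were lower too, with a median of -1.71, where 7087 of 13997 genes tested were lower. None of either list passed edgeR's adjusted threshold (smallest adjusted p = 0.102 for both). Adipocyte markers summed to at most 5.53 CPM in any library. The part of these cell types in the differences was not tested. The marker covariate itself differed between the knockout and WT groups, and the slope left group differences out, so neither can decide the part of hepatocytes.

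Further genes of both pathways were read from the same fit. Of 20 further sterol pathway genes, 0 passed edgeR's adjusted threshold in any comparison; at an unadjusted p under 0.05, 8 were higher and Ggps1 lower in DKO against WT, where 13.7% of all genes were higher and 5.22% lower, and 7 were higher and Ggps1 lower in CDK18KO against WT, where the shares were 11.6% and 5.31%. Of 25 further fatty acid and triglyceride genes 22 were tested, of which 10 (DKO) and 11 (CDK18KO) were higher and none lower at the same threshold, against those same shares of all genes, and none passed when adjusted. Nr1h3, which encodes the sterol-sensing receptor LXRα, differed on the log2 scale by 2.49 in DKO and 2.31 in CDK18KO against WT (edgeR adjusted p = 0.146 and 0.168), Acsl1, a long-chain acyl-CoA synthetase, by 2.68 in DKO and 2.7 in CDK18KO, and Cd36, a fatty acid transporter, by 2.77 and 2.51. Npc1, the late-endosomal cholesterol exporter, differed by 1.81 and Slc25a1, the mitochondrial citrate carrier, by 1.76 in CDK18KO against WT. Abcg1 and Abca1, cholesterol exporters, differed by 1.43 and 1.23 in DKO against WT and by 0.69 and 0.52 in DKO against CDK18KO. Lpin1, the phosphatidate phosphatase, had 328, 792, 57.6 and 134 CPM in DKO, 25.5, 79.8, 21.4, 205 and 77.8 CPM in CDK18KO, and 15.2, 86.5, 15.7, 22.4 and 100 CPM in WT tumours, and differed by 2.78 in DKO against WT and by 2.0 (SE 0.84, edgeR unadjusted p = 0.0311, adjusted p = 0.764) in DKO against CDK18KO. Pgd, an NADPH-forming enzyme, was 0.70 lower in DKO than in CDK18KO tumours on the log2 scale (adjusted p = 0.993).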

How the data were processed

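RNA of 14 mouse liver tumours (4 DKO, 5 CDK18KO, 5 WT) was measured by 3′ mRNA sequencing. The authors deposited 1 table of raw counts per gene symbol. The submitters' processing notes name HTSeq 1.99.2, STAR 2.7.11a, DESeq2 1.32.0, UMI-tools 1.1.2 and FastQC, and builds mm10 and GRCh38 with no role. Whether molecular identifiers were collapsed, and the annotation counted, are not stated in the sources, so counts are treated as reads. Unused columns of single-sample values numbered 0. Total counts ran from 1442417 to 6068209.

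The test was edgeR 4.0.16 (quasi-likelihood F, two-sided, R 4.3.3) run on counts as deposited: TMM scaling, filterByExpr, a single fit of all libraries, and Benjamini-Hochberg correction across 13997 genes, which hold 99.0% of counts. CPM uses TMM-scaled totals, log2 CPM a prior count of 2, and SE is the size of the log2 fold change over the root of its F. The common BCV (biological coefficient of variation) was 0.598. Both fits were tested on simulated data. Alternatives were DESeq2 1.42.0, scaling by upper quartile or RLE, no filter, a filter on CPM and total count, the pair of groups alone, a replicate block, Y-linked and hepatocyte covariates, and each library left out. Leaving out 3 libraries with high Y-linked counts, and the slope on hepatocyte markers, were added after seeing the data. The members and lists were chosen with earlier results of these data known. All members may be named, with values in every library for the regulators, the 3 members of each arm with the smallest p in a comparison and 4 gene pairs; of other pathway genes, up to 2 of each list with the smallest p per comparison are named, and any gene past the threshold where these are few. Some genes of the sterol list are not reported here and are left out of its counts. Promoters and positions are from RefSeq GRCm38.p6.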

Additional observations from a re-analysis of the deposited data

Results flagged for a closer look

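Within WT tumours, 3 members had 1 library far above the other 4, in each case WT 2. Among the 114 groups of libraries examined, the rule marks about 1 in 20 by chance, and the 3 flags do not exceed that rate. The groups share the same libraries and are not independent, so the rate is only a rough guide. The gap of WT 2 to its nearest neighbour on the log2 CPM scale, as a share of the group's range, was 0.876 for Dgat2 (64.8 CPM against 12.5 to 15.4 in the other WT libraries), 0.736 for Thrsp (38.9 CPM against 1.54 to 4.08) and 0.721 for Fads2 (191 CPM against 70.8 to 93.4). WT 2 also had the highest hepatocyte marker sum of the WT libraries, 7618 CPM, and the highest total count. The part of either in these values was not tested.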

How the results depend on the processing

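Counts of genes called depended strongly on the method. For DKO against WT, 1033 genes and 8 members were called by DESeq2, 252 genes and 2 members without a filter on low counts, 438 genes and 3 members with the replicate block, 2 genes with the hepatocyte covariate, and 0 genes with the Y-linked covariate, with the pair of groups alone or without CDK18KO 1, WT 3 and WT 5, whose Y-linked sums were over 100 CPM. For CDK18KO against WT, these numbers were 856 genes and 3 members by DESeq2, 173 genes without the filter, 297 genes and 2 members with the replicate block, 2 with the hepatocyte covariate, and 0 with the Y-linked covariate, the pair alone or without those 3 libraries. For DKO against CDK18KO, DESeq2 called 84 genes and the fit without a filter 42. The replicate numbers do not pair the samples: correlations of same-numbered libraries ran from -0.23 to 0.65, and 3 of 14 libraries correlated best with their own number.

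With the hepatocyte covariate the medians for DKO against WT were -0.42 (sterol) and 0.0264 (fatty acid), and for CDK18KO against WT -0.37 and 0.00256. The sterol minus fatty acid difference for DKO against WT was -0.56 with the Y-linked covariate. Upper-quartile factors shifted the median of all genes to -0.16 for DKO and -0.13 for CDK18KO against WT, where the members' medians were 1.25 and 1.05. The cause of these shifts was not tested.

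Leaving out each library in turn gave 0 to 1 genes called for DKO against WT, 0 to 74 for CDK18KO against WT (74 without CDK18KO 1) and 0 to 2 for DKO against CDK18KO, with 0 members in every case. The sterol median ran from 0.84 to 1.61, 0.82 to 1.27 and -0.14 to 0.65 in those comparisons, the fatty acid median from 1.21 to 1.92, 0.99 to 1.60 and -0.04 to 0.64, and the sterol minus fatty acid difference from -0.38 to -0.18, -0.50 to -0.0844 (without CDK18KO 2) and -0.27 to 0.19. Genes with a positive slope on the hepatocyte markers numbered 708 to 1256 and members 7 to 20 when 1 library was left out, and 1694 and 23 without WT 1 and WT 3. Depth is lowest in WT 5. Acacb rests on 1 count there and also in WT 4, which had 2997131 total counts.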
